A study of Mus musculus with 8 samples.

Results

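The genes described are the ephrins and Eph receptors of the mouse mammary cell line 3134, a list of 9 genes made up of the receptors Epha2, Epha4, Ephb2, Ephb3 and Ephb4 and the ligands Efna1, Efna5, Efnb1 and Efnb2. The list was chosen by the measured hormone response, in which Epha2 was lower, so the hormone responses of the 9 genes are given as a description without a test. Each gene was read from a probe set annotated with its symbol alone, and 8 of the 9 genes had 1 such probe set among the 19938 genes measured. No probe set was listed under the symbol Ephb2, which is not analysed here.

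The 3134 line derives from C127 cells, taken from a mammary adenocarcinoma of an RIII mouse. All 4 groups carry stably integrated A-fos, a dominant negative protein that blocks the DNA binding of AP-1 (dimers of Fos and Jun proteins), and the tetracycline regulator tTa, which keeps A-fos on unless tetracycline is present (Tet-Off). All cells spent 48 h in charcoal-dextran-treated serum. The groups of 2 arrays each were 4 h of dexamethasone (100 nM) titled plus tetracycline, 0 h titled plus tetracycline, 4 h of dexamethasone titled no tetracycline, and 0 h titled no tetracycline. The Tet-Off characteristic listed for the samples gives the same tetracycline state as the titles. The treatment text gives the opposite tetracycline state (1 ug per ml) for every one of the 8 samples. The arms are therefore called plus-titled and no-titled after their titles, and the arm with active A-fos cannot be told from the descriptions. Separate cultures for the 2 arrays of a group are not stated, nor is whether the line is 1 clone, so the p-values reflect spread between arrays that may be technical. The study addressed how blocking AP-1 alters the response to dexamethasone, a synthetic glucocorticoid that activates the glucocorticoid receptor.

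Eph receptors are receptor tyrosine kinases, and their ligands, the ephrins, sit on the surface of neighbouring cells. A-type ephrins are held by a lipid anchor and bind mainly EphA receptors, while B-type ephrins cross the membrane and bind mainly EphB receptors. Signals run forward into the cell with the receptor and in reverse into the cell with the ephrin, and in epithelia the pairs are known for sorting cells, setting boundaries and controlling adhesion. EphA2 is often abundant in mammary tumour cells, where ephrin-A1 is its main ligand.

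The 3 genes that differed between the arms at one or both times, Epha2, Efnb1 and Efnb2, are shown here by their promoter windows, from 250 bases before to 50 bases after the gene start, read 5′ to 3′ on the gene's strand (RefSeq, GRCm38.p6). The Epha2 window lies at chr4:141300971-141301270 on the plus strand, the Efnb1 window at chrX:99135811-99136110 on the plus strand and the Efnb2 window at chr8:8661193-8661492 on the minus strand. Capitals mark a cAMP response element, TGACGTCA.
Epha2: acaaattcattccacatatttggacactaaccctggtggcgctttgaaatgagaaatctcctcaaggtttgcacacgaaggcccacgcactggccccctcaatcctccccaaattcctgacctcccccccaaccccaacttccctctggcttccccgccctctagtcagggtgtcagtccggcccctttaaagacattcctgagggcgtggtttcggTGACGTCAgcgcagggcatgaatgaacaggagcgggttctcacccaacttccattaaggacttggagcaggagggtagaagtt
Efnb1: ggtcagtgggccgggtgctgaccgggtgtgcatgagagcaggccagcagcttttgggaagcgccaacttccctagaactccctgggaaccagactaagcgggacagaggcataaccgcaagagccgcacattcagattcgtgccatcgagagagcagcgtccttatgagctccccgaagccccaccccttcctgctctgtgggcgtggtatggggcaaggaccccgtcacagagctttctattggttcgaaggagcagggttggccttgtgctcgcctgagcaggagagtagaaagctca
Efnb2: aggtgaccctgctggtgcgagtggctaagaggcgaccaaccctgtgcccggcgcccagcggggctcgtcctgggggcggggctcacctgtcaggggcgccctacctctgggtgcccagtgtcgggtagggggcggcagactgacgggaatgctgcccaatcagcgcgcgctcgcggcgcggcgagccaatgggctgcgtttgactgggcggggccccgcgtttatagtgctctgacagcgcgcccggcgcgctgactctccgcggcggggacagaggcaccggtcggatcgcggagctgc
All 9 genes matched the promoter table, with 10 windows among 32851. The motifs were chosen after these windows had been seen, and 8 were searched on both strands. The cAMP response element was found in the Epha2 window, at bases -33 to -26 from the start, and in no other of the 10 windows, while 1.79% of all windows hold it. The AP-1 motif TGACTCA (5.20% of all windows), the hexamer half-site AGAACA of the glucocorticoid receptor (18.97%), the E-box CACGTG (7.15%) and the full NR3C1 palindrome (0.14%) were found in none of the 10 windows. The shorter half-site GAACA, which lies within the hexamer and is in 41.69% of all windows, was found once, in the Epha2 window. The TEAD motif GGAATG (14.66% of all windows) was found in the Epha2 and Efnb2 windows, and the GC box GGGCGG (35.66%) in windows of 7 genes, all but Ephb2 and Efnb1. A match is a stretch of letters and was not tested as a binding site.

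Values are log2 expression as the authors normalised them with RMA, a method that scales arrays to a common distribution, so a difference of 1 is a doubling. Array medians lay between 5.44 and 5.47, apart from 5.36 in the untreated plus-titled replicate 1. The 2 arrays of a group correlated with r = 0.993 to 0.996 across genes. Genes that differed over 2-fold within a pair numbered 4 to 24 and were most frequent in the untreated plus-titled pair. The 4 glucocorticoid targets Fkbp5, Tsc22d3, Per1 and Sgk1 rose in both arms, by 1.82 to 3.38 in the plus-titled arm and by 1.90 to 3.05 in the no-titled arm (log2). Sgk1 was lower at 0 h in the plus-titled arm (-1.02, limma adjusted p = 0.000884). It rose there from a mean of 6.69 to 10.07, and in the no-titled arm from 7.71 to 9.98. That difference of responses passed only in 2 of 7 other settings. The receptor gene Nr3c1 fell without a call, from 8.78 to 8.30 in the plus-titled arm and from 8.73 to 8.34 in the no-titled arm. Of 6 AP-1 genes, 2 were called with hormone in the plus-titled arm (Fos, 0.73, and Jun, -0.70) and 1 in the no-titled arm (Fosl2, -0.91). The shares of all genes were 1.1% and 1.43%. Without a call, Jun also fell in the no-titled arm, from a mean of 8.69 to 8.14, and Fos rose there from 5.03 to 5.36. The Fos and Jun calls were lost when only the arrays compared were fitted. For the difference of the responses 0 of the 6 passed, beside 0.00502% of all genes. Between the arms 2 of the 6 were called at 0 h, where Fosl1 (-1.06) and Fosl2 (-0.76) were lower in the plus-titled arm. At 4 h 2 were called, with Fosl1 lower (-0.76) and Fos higher (0.71) in that arm. The shares of all genes were 9.38% at 0 h and 9.61% at 4 h. Fos had a mean of 5.45, below the median gene mean of 5.66. The 4 h calls were lost in 3 of the 8 fits with an array left out for Fosl1 and in 1, without the treated plus-titled replicate 1, for Fos. As to the labelled tissue, 3 of 8 luminal markers (Krt8, Esr1 and Cldn3) and 2 of 7 basal markers (Krt14 and Acta2) lay above the median gene mean of 5.66, and Epcam and Cdh1 lay below it. By the same measure 6 of 8 fibroblast markers, 3 of 10 endothelial markers and 0 of 7 leukocyte markers lay above the median. Bulk RNA cannot tell fewer cells of a type from less RNA per cell.

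Epha2 had the widest range among the receptors. It measured 7.90 and 7.58 in the 4 h plus-titled arrays, 8.72 and 8.43 in the 0 h plus-titled arrays, 8.39 and 8.13 in the 4 h no-titled arrays, and 9.40 and 9.21 in the 0 h no-titled arrays. The plus-titled arrays lay below the no-titled arrays of the same time, with no overlap at either time. The 4 h arrays also lay below the 0 h arrays of their own arm without overlap. That separation by hormone is a description only, since the hormone response chose the list. With 2 arrays per group, a lack of overlap carries no test. In order of level the groups were 4 h plus-titled (7.74 ± 0.23), 4 h no-titled (8.26 ± 0.18), 0 h plus-titled (8.58 ± 0.20) and 0 h no-titled (9.31 ± 0.13, SD, n = 2 each). The middle pair are the closest neighbours, with the higher 4 h no-titled array at 8.39 and the lower 0 h plus-titled array at 8.43.

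The comparison of arms was not used in choosing the genes and was tested with limma across all genes, with Benjamini-Hochberg adjustment and a call at an adjusted p below 0.05. At 0 h Epha2 was 1.66-fold lower in the plus-titled than in the no-titled arm, a difference of -0.73 ± 0.15 (SE, log2, n = 2 arrays each) with a 95% interval of -1.07 to -0.39 and an adjusted p of 0.0148. The call is lost without the untreated plus-titled replicate 2 (-0.59, adjusted p = 0.0900) and without the untreated no-titled replicate 1 (-0.64, adjusted p = 0.118). At 4 h the difference was -0.52 ± 0.15, with an interval of -0.86 to -0.18, and did not pass (adjusted p = 0.0612). In limma it does pass at 4 h with a variance trend and robust estimate (adjusted p = 0.0187) and with dim genes left out (adjusted p = 0.0194).

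With hormone, Epha2 differed by -0.84 ± 0.15 (SE) in the plus-titled arm, 1.79-fold lower at 4 h than at 0 h, and by -1.05 ± 0.15 in the no-titled arm, 2.07-fold lower. The 2 responses differed by 0.21, with a 95% interval of -0.27 to 0.69 (limma, adjusted p = 0.997). A difference in the size of the response was therefore not detectable, and the interval leaves room for differences of either sign.

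**Figure D1:**
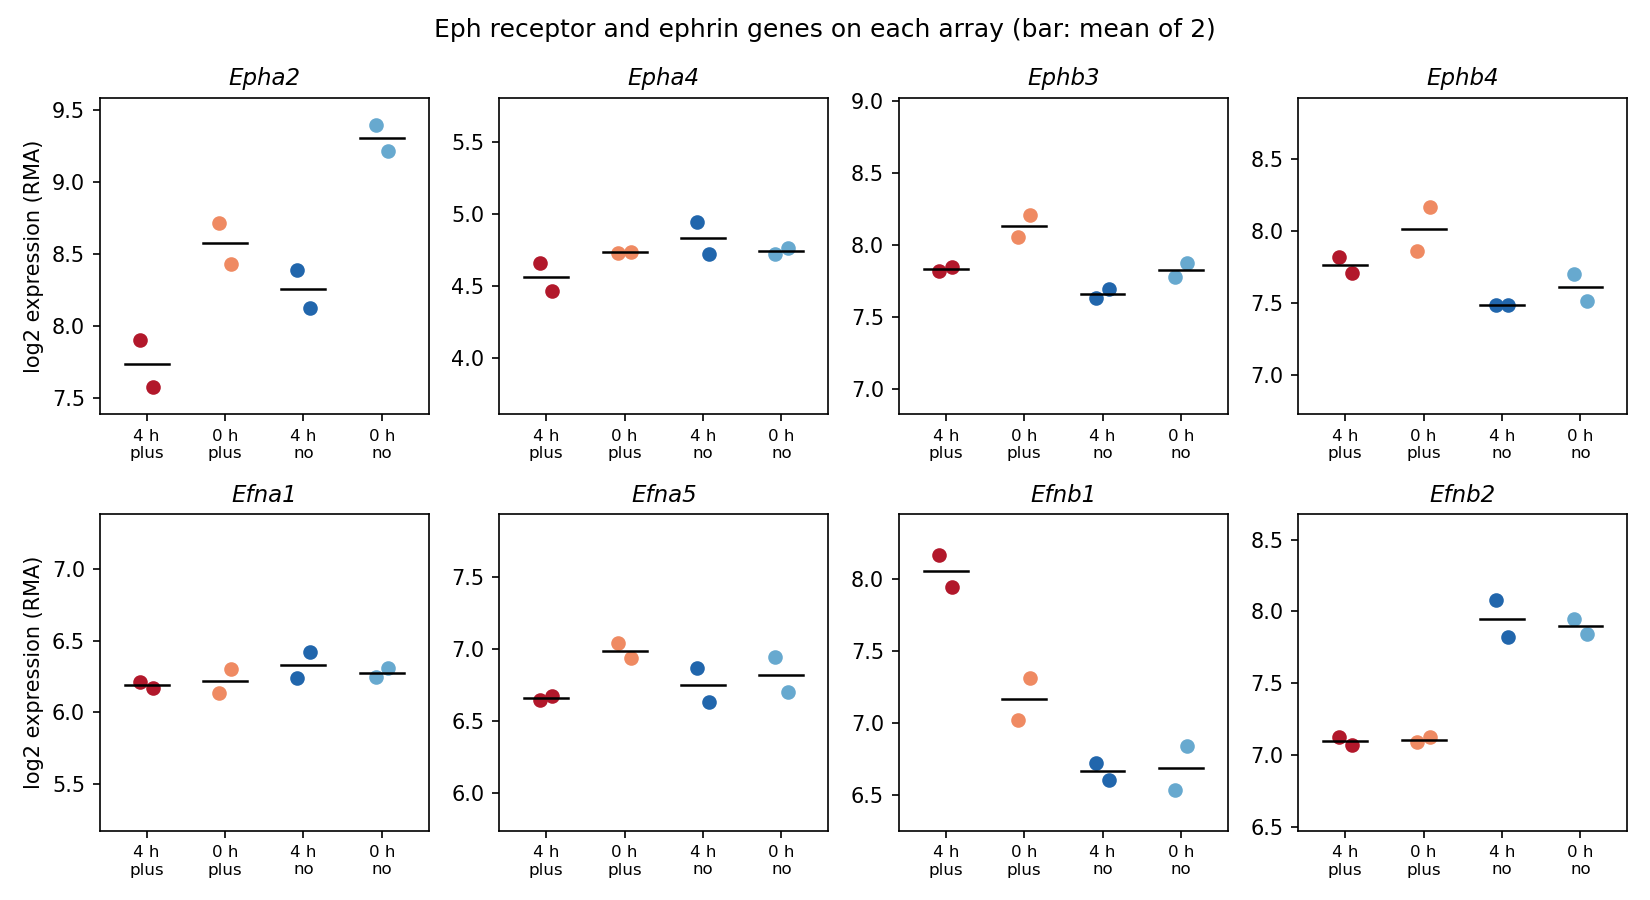
Log2 expression (RMA) of the 8 measured ephrin and Eph receptor genes in each of the 8 arrays, by group, where points are arrays and bars are the means of 2 arrays. Epha2 is lowest in the 4 h plus-titled arrays (7.58 and 7.90), Efnb1 is highest there (7.94 and 8.17), and the 4 plus-titled arrays of Efnb2 (7.07 to 7.12) lie below its 4 no-titled arrays (7.82 to 8.08).

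Ephb3 and Ephb4 encode B-type receptors, and EphB4 is best known as the receptor for ephrin-B2 on veins. Ephb4 measured 7.82 and 7.71 in the 4 h plus-titled arrays, 7.86 and 8.17 in the 0 h plus-titled arrays, 7.49 and 7.48 in the 4 h no-titled arrays, and 7.70 and 7.51 in the 0 h no-titled arrays. All 4 plus-titled arrays lay above all 4 no-titled arrays, though the nearest were 7.71 and 7.70. The arm difference was 0.28 ± 0.13 at 4 h (adjusted p = 0.237) and 0.41 ± 0.13 at 0 h (adjusted p = 0.0780, limma), and neither passed. The 0 h difference does pass in 3 other settings, at an adjusted p of 0.0245 with dim genes left out, 0.0328 with a variance trend and 0.0350 with arrays centred on their medians, and without the untreated plus-titled replicate 1 (0.56, adjusted p = 0.0414).

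Ephb3 measured 7.81 and 7.85 in the 4 h plus-titled arrays, 8.06 and 8.21 in the 0 h plus-titled arrays, 7.63 and 7.69 in the 4 h no-titled arrays, and 7.77 and 7.87 in the 0 h no-titled arrays. The 4 h plus-titled and 0 h no-titled arrays overlapped, and the other groups were apart. Its arm difference was 0.17 ± 0.11 at 4 h (adjusted p = 0.416) and 0.31 ± 0.11 at 0 h (adjusted p = 0.110), and it passes at 0 h only with dim genes left out (adjusted p = 0.0342, limma).

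Epha4, a receptor that binds ephrins of both classes, was the one measured gene of the list with a mean below that of the median gene. It measured 4.66 and 4.47 in the 4 h plus-titled arrays, 4.73 and 4.74 in the 0 h plus-titled arrays, 4.95 and 4.72 in the 4 h no-titled arrays, and 4.73 and 4.76 in the 0 h no-titled arrays. The 4 h plus-titled arrays were the 2 lowest, and the other 6 arrays mixed. Arm differences of -0.27 at 4 h (adjusted p = 0.207) and -0.01 at 0 h (adjusted p = 0.973, limma) did not pass.

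Efnb1 encodes ephrin-B1, a transmembrane ligand of EphB receptors. It measured 8.17 and 7.94 in the 4 h plus-titled arrays, 7.02 and 7.31 in the 0 h plus-titled arrays, 6.72 and 6.60 in the 4 h no-titled arrays, and 6.53 and 6.84 in the 0 h no-titled arrays. The 4 h plus-titled arrays stood above all others, the 0 h plus-titled arrays came next, and the 2 no-titled groups overlapped. At 4 h Efnb1 was 2.63-fold higher in the plus-titled arm, 1.39 ± 0.15 (SE, log2) with an interval of 1.07 to 1.72 and an adjusted p of 0.000424 (limma). This call held in all 16 alternative settings and left-out arrays. At 0 h the arm difference was 0.48 ± 0.15, with an interval of 0.16 to 0.80, and did not pass (adjusted p = 0.0680). It passes at 0 h in limma with dim genes left out (adjusted p = 0.0218), with median centring (0.53, adjusted p = 0.0300) and with a variance trend (adjusted p = 0.0303).

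With hormone, Efnb1 differed by 0.89 ± 0.15 in the plus-titled arm, 1.86-fold higher at 4 h than at 0 h, and by -0.02 ± 0.15 in the no-titled arm. The 2 responses differed by 0.91 ± 0.21, with an interval of 0.46 to 1.37. That difference had an unadjusted p of 0.00111 and an adjusted p of 0.491 (limma), so it did not pass over all genes tested. Its adjusted p stayed between 0.162 and 0.999 under every alternative run.

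Efnb2 encodes ephrin-B2, the ligand that marks arteries and binds EphB4. It measured 7.12 and 7.07 in the 4 h plus-titled arrays, 7.09 and 7.12 in the 0 h plus-titled arrays, 8.08 and 7.82 in the 4 h no-titled arrays, and 7.95 and 7.84 in the 0 h no-titled arrays. The arms stood apart at both times, and within an arm the 4 h and 0 h arrays overlapped. In the plus-titled arm it was 1.80-fold lower at 4 h (-0.85 ± 0.12, interval -1.11 to -0.59, adjusted p = 0.00178) and 1.73-fold lower at 0 h (-0.79 ± 0.12, interval -1.05 to -0.53, adjusted p = 0.00276, limma). Both calls held in all 16 alternatives. The hormone responses were -0.01 in the plus-titled arm and 0.05 in the no-titled arm, and they differed by -0.06, with an interval of -0.43 to 0.31.

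Efnb1 and Efnb2 thus had opposite signs between the arms at 4 h, with Efnb1 higher and Efnb2 lower in plus-titled cells. At 0 h the signs were also opposite, though the Efnb1 difference of 0.48 did not pass. Efnb3, a B-type ligand gene outside the list, differed by -0.03 at 4 h (adjusted p = 0.956) and -0.19 at 0 h (adjusted p = 0.602, limma).

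Efna1 encodes ephrin-A1, the main ligand of EphA2. It measured 6.21 and 6.17 in the 4 h plus-titled arrays, 6.14 and 6.30 in the 0 h plus-titled arrays, 6.24 and 6.42 in the 4 h no-titled arrays, and 6.24 and 6.31 in the 0 h no-titled arrays. The whole range was 6.14 to 6.42, and the arm differences of -0.14 at 4 h (adjusted p = 0.559) and -0.06 at 0 h (adjusted p = 0.819, limma) did not pass. Efna5, another lipid-anchored ligand, measured 6.65 and 6.67 in the 4 h plus-titled arrays, 7.04 and 6.94 in the 0 h plus-titled arrays, 6.87 and 6.63 in the 4 h no-titled arrays, and 6.94 and 6.70 in the 0 h no-titled arrays. Its plus-titled arrays were lower at 4 h than at 0 h, whereas its no-titled groups overlapped. The arm differences of -0.09 at 4 h (adjusted p = 0.763) and 0.17 at 0 h (adjusted p = 0.495) did not pass.

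**Figure D2:**
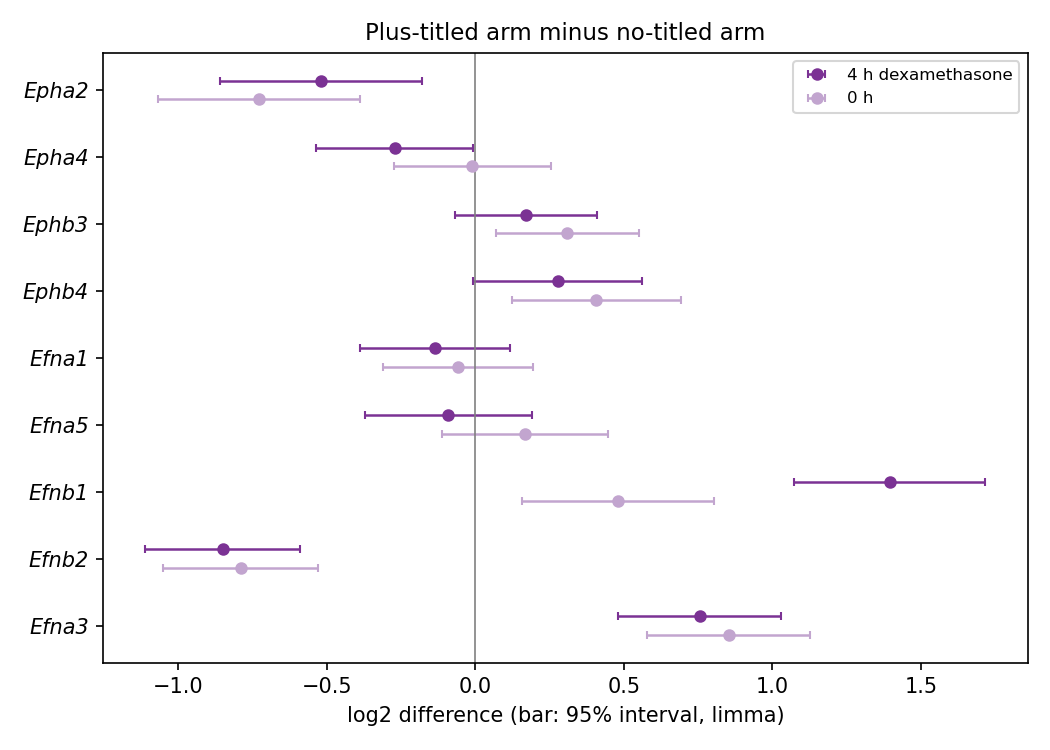
Log2 arm difference (plus-titled minus no-titled) for the listed genes and Efna3 after 4 h of hormone and at 0 h, with 95% intervals from limma. Efnb1 (1.39 at 4 h) and Efna3 (0.76 at 4 h and 0.85 at 0 h) lie to the right of 0, and Efnb2 (-0.85 and -0.79) and Epha2 (-0.52 and -0.73) lie to the left.

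Counted together, 2 of the 8 measured genes were called between the arms at 4 h (Efnb1 higher, Efnb2 lower), where 9.61% of all genes were called. At 0 h 2 of 8 were called (Epha2 and Efnb2, both lower), against 9.38% of all genes. The median arm difference over the 8 genes was -0.11 at 4 h and 0.08 at 0 h, and over all genes it was -0.01 and -0.02. In the difference of the responses 0 of 8 were called by limma, against 0.00502% of all genes, which is 1 gene. An unadjusted p below 0.05 was found in limma for 1 of the 8, Efnb1, and for 1018 of all 19938 genes. The hormone response served to choose the list, so its counts are a description from which nothing is read: 2 of 8 (Efnb1 higher, Epha2 lower) in the plus-titled arm, where the share of all genes was 1.1%, and 1 of 8 (Epha2 lower) in the no-titled arm, where it was 1.43%. The other 6 genes had hormone responses between -0.33 (Efna5) and -0.01 (Efnb2) in the plus-titled arm and between -0.16 (Ephb3) and 0.09 (Epha4) in the no-titled arm.

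**Figure D3:**
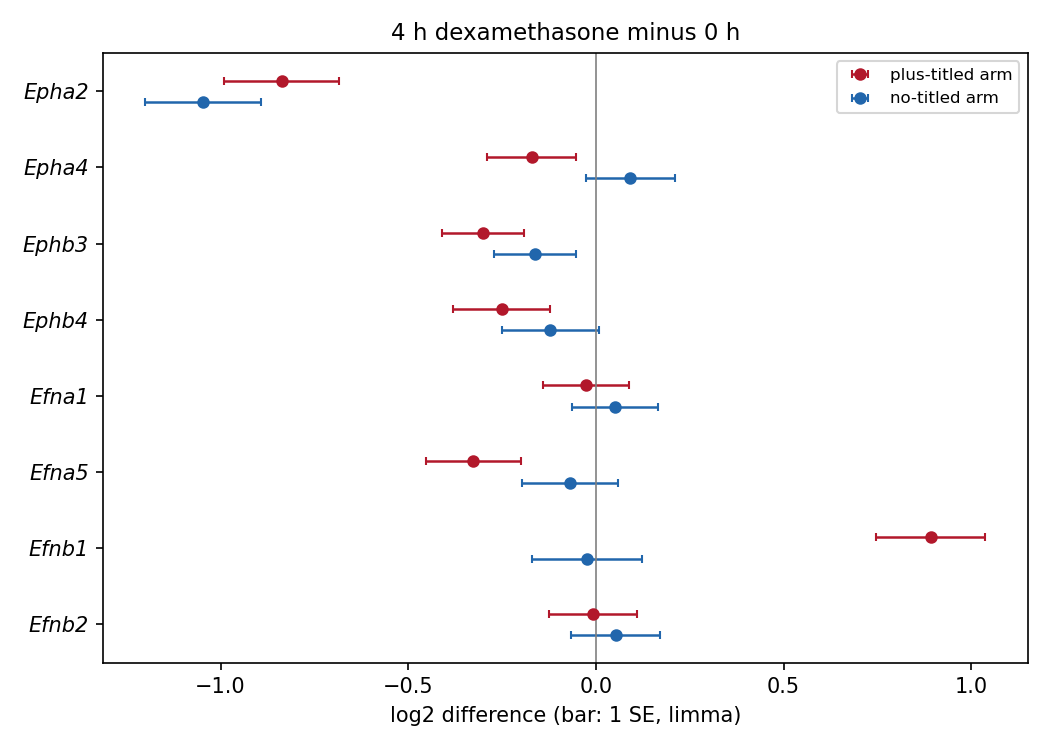
Log2 hormone response, 4 h minus 0 h, in the plus-titled and no-titled arms for the 8 measured genes, with bars of 1 SE. Epha2 lies at -0.84 and -1.05, Efnb1 lies at 0.89 in the plus-titled arm and at -0.02 in the no-titled arm, and the other 6 genes lie between -0.33 and 0.09.

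Among the other 13 Eph receptors and ephrins, all measured, Efna3 alone was called in any comparison. That is 1 of 13 between the arms at each time, beside 9.61% of all genes at 4 h and 9.38% at 0 h. Nothing is read about the list from this count. Efna3, a lipid-anchored ligand, measured 7.65 and 7.62 in the 4 h plus-titled arrays, 7.55 and 7.78 in the 0 h plus-titled arrays, 6.95 and 6.81 in the 4 h no-titled arrays, and 6.91 and 6.71 in the 0 h no-titled arrays. The arms stood apart at both times. In the plus-titled arm it was 1.69-fold higher at 4 h (0.76 ± 0.12, adjusted p = 0.00431) and 1.81-fold higher at 0 h (0.85 ± 0.12, adjusted p = 0.00249, limma), and both calls held in all 16 alternatives. In the RefSeq order of protein-coding genes on chromosome 3 (GRCm38.p6), Efna3 lies between Efna1 and Efna4. Neither neighbour was called: at 0 h the arm difference was -0.06 for Efna1 and 0.01 for Efna4, against 0.85 for Efna3. The other 12 genes had arm differences of -0.20 to 0.32 at 4 h and -0.27 to 0.35 at 0 h, and 8 of the 13 had means below that of the median gene.

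Of 8 measured proteases and secretase subunits, enzymes that cut ephrins and Eph receptors at the cell surface, 3 were called between the arms at each time, all higher in the plus-titled arm, and 5 did not pass. The shares of all genes called were 9.61% at 4 h and 9.38% at 0 h, and the median of the 8 was near that of all genes at 0 h (-0.02 for both). Ncstn, a gamma-secretase subunit gene, differed by 0.55 at 4 h (adjusted p = 0.0112) and 0.63 at 0 h (adjusted p = 0.00633). Adam17, a sheddase gene, differed by 0.50 (adjusted p = 0.0150) and 0.55 (adjusted p = 0.0100), and Adam10, whose product cleaves ephrins, by 0.38 (adjusted p = 0.0494) and 0.40 (adjusted p = 0.0411, limma). Adam10 lost its call with any 1 of the 8 arrays left out at 0 h and with 6 of the 8 at 4 h. Ncstn lost it without the treated plus-titled replicate 1 or 2 or the treated no-titled replicate 2 at 4 h and without the untreated no-titled replicate 1 at 0 h. Adam17 lost it without any 1 of the 4 arrays compared at 4 h and without either untreated no-titled array at 0 h. Across these fits the highest adjusted p was 0.101 for Ncstn, 0.0964 for Adam17 and 0.255 for Adam10. With hormone 0 of the 8 passed in limma in either arm.

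Of 14 partners of reverse signalling, 2 were called between the arms at 4 h and 3 at 0 h, beside 9.61% and 9.38% of all genes. Stat3, a transcription factor that can bind phosphorylated ephrin-B1, was 2.10-fold higher in the plus-titled arm at 4 h (1.07, adjusted p = 0.000394) and 2.27-fold higher at 0 h (1.18, adjusted p = 0.000288, limma), with both calls kept in every fit with an array left out. Gja1, which encodes a gap junction connexin, was lower, by -0.68 at 4 h (adjusted p = 0.00728) and -0.52 at 0 h (adjusted p = 0.0268). Its call was lost without replicate 2 of either treated group at 4 h, and at 0 h without the untreated plus-titled replicate 2 or either untreated no-titled array (highest adjusted p 0.153). Pick1, a PDZ protein gene, was higher at 0 h (0.43, adjusted p = 0.0256), a call lost in 3 of the 8 fits with an array left out. With hormone, Rapgef2, an exchange factor gene for Rap GTPases, rose by 0.74 in the plus-titled arm (adjusted p = 0.00647) and 0.83 in the no-titled arm (adjusted p = 0.00227), and the first call was lost without the treated plus-titled replicate 2 (adjusted p = 0.0912).

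Of 23 measured adaptors and kinases that act below Eph receptors, 1 passed with hormone in each arm, beside 1.1% and 1.43% of all genes, and 1 passed between arms at each time, beside 9.61% and 9.38%. Dok1, a docking protein gene, rose by 0.88 in the plus-titled arm (adjusted p = 0.00145) and 1.19 in the no-titled arm (adjusted p = 0.000105), and both calls held in all fits with an array left out. Between arms, Dok1 was lower at 4 h in the plus-titled arm (-0.43, adjusted p = 0.0227) and the adaptor gene Shc1 was higher at 0 h (0.44, adjusted p = 0.0450). The Dok1 arm call was lost without any 1 of the 4 arrays compared and the Shc1 call without any 1 of the 8. None of the proteases, reverse-signalling partners or adaptors and kinases passed for the difference of the responses in limma.

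Median arm differences at 4 h and 0 h were 0.10 and -0.02 for the proteases, 0.05 and 0.07 for the reverse-signalling partners and 0.04 and 0.10 for the adaptors and kinases, beside -0.01 and -0.02 over all genes. Median hormone responses in the plus-titled and no-titled arms were -0.04 and -0.04, 0.00 and -0.01, and -0.07 and 0.03 for the same 3 lists, beside -0.01 and 0.01 over all genes.

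Cell type markers that moved with the arms are given beside these results. Krt14, a basal keratin gene, was lower in the plus-titled arm by -1.41 at 4 h (adjusted p = 0.000771) and -1.39 at 0 h (adjusted p = 0.000930), and Acta2, a smooth muscle actin gene, was higher by 1.45 (adjusted p = 0.0436) and 1.66 (adjusted p = 0.0262). The fibroblast marker Pdgfra was higher by 0.59 (adjusted p = 0.0123) and 0.88 (adjusted p = 0.00174), and Pdgfrb was higher at 0 h (0.52, adjusted p = 0.0298). The fibroblast markers did not move together. Their median arm difference was 0.08 at 4 h and 0.04 at 0 h, with 5 of 8 above 0 at each time. The lowest of the 8 differences was -0.29 at 4 h and -0.43 at 0 h. With hormone Pdgfrb fell by 0.75 in the plus-titled arm (adjusted p = 0.0191, limma), the one call among the cell type markers in either arm. It also fell in the no-titled arm, from a mean of 9.06 to 8.54, without a call, and its difference of the responses did not pass. The Acta2, Pdgfrb and 4 h Pdgfra calls were each lost in 3 to 5 of the 8 fits with an array left out. Between the arms 0 of 10 endothelial, 0 of 7 leukocyte and 0 of 8 luminal markers were called. Of the basal markers 2 of 7 were called at each time, and of the fibroblast markers 1 of 8 at 4 h and 2 of 8 at 0 h. The shares of all genes called were 9.61% at 4 h and 9.38% at 0 h, so a count of 0 in lists this short says little. Mean endothelial marker levels per array were 5.08 to 5.15 at 4 h and 5.02 to 5.05 at 0 h in the plus-titled arm, and 5.03 to 5.16 at 4 h and 5.12 at 0 h in the no-titled arm. Mean fibroblast marker levels were 6.86 to 7.02 at 4 h and 6.98 to 7.14 at 0 h in the plus-titled arm, and 6.85 to 6.86 at 4 h and 6.97 to 7.02 at 0 h in the no-titled arm. Mean basal marker levels were 5.13 to 5.45 at 4 h and 5.32 to 5.36 at 0 h in the plus-titled arm, and 5.25 to 5.39 at 4 h and 5.25 to 5.40 at 0 h in the no-titled arm. The part of these cell type markers in the ephrin and Eph receptor differences was not tested.

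The genes most like Epha2 were taken as the 6 with the highest Pearson correlation with it over the 8 arrays, among 1934 genes whose SD over the arrays was at least 0.3. They were Tnrc18 (r = 0.991), Mcc (0.985), Plaur (0.985), Ankrd1 (0.983), Tmem171 (0.980) and Simc1 (0.973). The 8 points are 4 groups of 2 arrays, so these values carry no test. They describe a shared order of groups and, in part, a shared order within pairs. Epha2 was higher in replicate 1 than in replicate 2 in every group, as were Tnrc18, Mcc, Plaur and Ankrd1. Tmem171 was not, and Simc1 was nearly level in the 0 h no-titled pair (7.2672 and 7.2664). Plaur, which encodes the receptor of urokinase plasminogen activator, measured 6.29 and 6.10 in the 4 h plus-titled arrays, 7.14 and 6.91 in the 0 h plus-titled arrays, 6.56 and 6.52 in the 4 h no-titled arrays, and 7.88 and 7.60 in the 0 h no-titled arrays. Its groups fell in the same order as those of Epha2, with no overlap. Ankrd1, which encodes a muscle ankyrin repeat protein, averaged 8.83 in 4 h plus-titled, 9.89 in 0 h plus-titled, 9.35 in 4 h no-titled and 10.95 in 0 h no-titled cells. Its 0 h plus-titled arrays (10.28 and 9.49) overlapped its 4 h no-titled arrays (9.53 and 9.16).

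**Figure D4:**
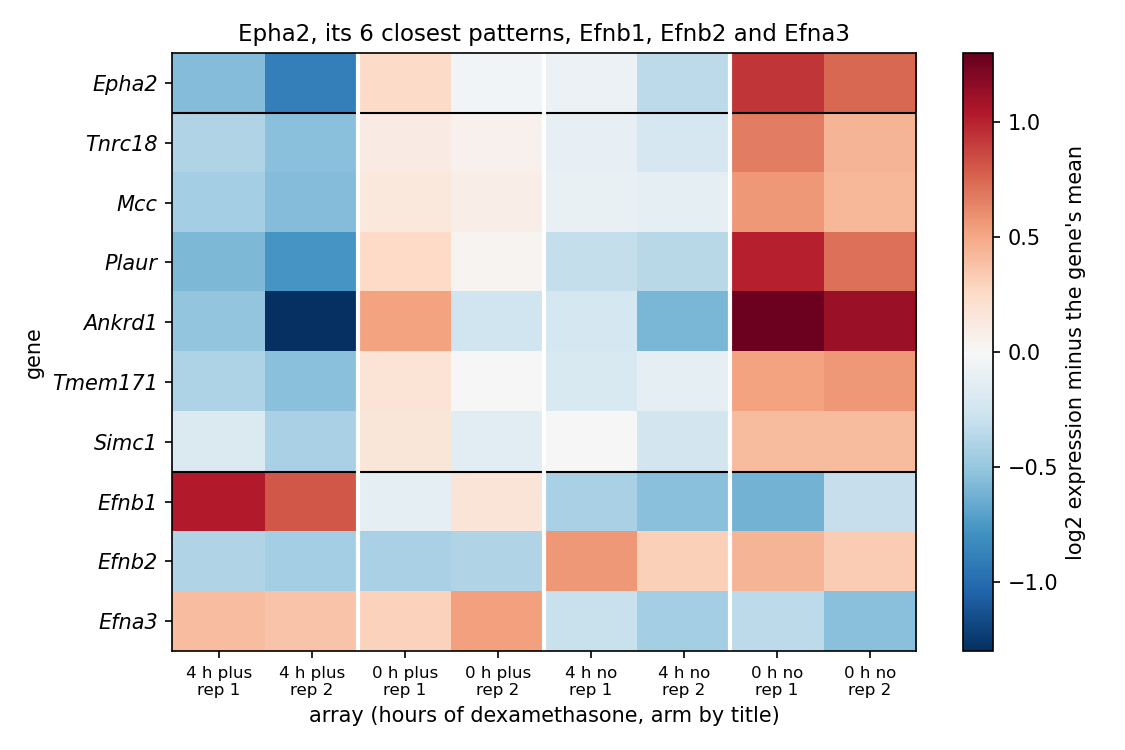
Log2 expression minus each gene's mean over the 8 arrays, in colour, for Epha2, the 6 genes with the most similar pattern, Efnb1, Efnb2 and Efna3, with 1 column per array. Epha2 and the 6 genes are on average lowest in the 4 h plus-titled and highest in the 0 h no-titled arrays, Efnb1 is highest in the 4 h plus-titled arrays, and Efnb2 and Efna3 divide by arm in opposite directions.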

How the data were processed

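Biotin-labelled RNA of 8 samples of 3134 cells was measured on Affymetrix arrays, 2 per group. The authors deposited log2 values for 28888 probe sets, normalised with RMA in Affymetrix Expression Console per the submitters' processing notes, without stated versions. RMA fits one distribution to all arrays, so a change shared by most genes would not show. Probe sets were named from GEO's platform annotation: 21789 carried 1 symbol, 1621 several and 5478 none. Per gene the probe set with 1 symbol and the highest mean was kept, giving 19938 genes, and a gene's mean was set against the median gene mean only as a coarse guide to dim signals, since probe sets differ in brightness for the same RNA level.

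Groups follow the titles. One limma model (version 3.58.1, R 4.3.3) with 4 group means was fitted to all 8 arrays, with 4 residual degrees of freedom per gene, 2-sided tests and Benjamini-Hochberg adjustment over all genes. The threshold for a call was an adjusted p below 0.05. The code of the fit was tried on simulated data that met the model's assumptions by construction, which says nothing about the calls made here. Intervals are 95% intervals, and the number of arrays limits the precision. The genes and lists were chosen with earlier results of these data known. One other list was tested and is not reported here. Every listed gene is named, other lists by up to 4 called genes with the largest change, and the 6 genes most like Epha2 by Pearson correlation. Alternatives were another variance model, fewer arrays in the fit, the replicate block, dim genes left out, cyclic loess, median centring, the mean of probe sets, all probe sets, and each array left out. Numbered replicates of different groups had deviations that correlated between -0.02 and 0.13, so the numbers were not taken as pairs.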

Additional observations from a re-analysis of the deposited data

How the results depend on the processing

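Of the single-gene results under the alternatives, 2520 kept their side of the threshold or, where not tested, moved by less than 1 SD. A further 23 gained a call, 125 lost one and 8 without a test moved by more than 1 SD. A change of sign was counted only for results with a call, and 0 of those reversed. Uncalled differences could change sign, as for Efna1 between the arms at 0 h (-0.14 to 0.02 with arrays left out). For the counts of listed genes, 68 alternatives stayed within 1.5 times and 11 did not. At 0 h, 2 genes were called between the arms, against 4 with a variance trend and robust estimate, 4 with median centring and 5 of 7 with dim genes left out. The shares of all genes called at 0 h under these 3 settings were 13.01%, 10.03% and 28.34%, against 9.38%. The last setting tested 9969 genes in place of 19938. The cause of the higher counts was not tested. With each array left out, the count ranged over 1 to 3 at 0 h, where the third gene was Ephb4 without the untreated plus-titled replicate 1, and it was 2 at 4 h in every such fit. The hormone counts, which describe the values that chose the list, ranged over 0 to 2 in the plus-titled and 0 to 1 in the no-titled arm. With the replicate block the counts were 2 and 1 for the hormone responses, 3 at 4 h, 2 at 0 h and 0 for the difference of the responses. The added gene at 4 h was Epha2 (adjusted p = 0.0132 in limma with the block), and of the partner genes Adam10 lost its 4 h call with it (adjusted p = 0.0523). Over all genes the hormone calls numbered 220 and 285, against 370 and 461 with the variance trend and 399 and 493 of 9969 with dim genes left out. The arm calls numbered 1916 and 1870, against 2792 and 2825 of 9969 with that filter. The difference of the responses gave 1 gene, against 11, 8 and, with median centring, 2. Left-out arrays of the compared groups gave 80 to 129 and 134 to 143 hormone calls, 654 to 1073 arm calls at 4 h, 589 to 1311 at 0 h and 0 to 2 for the difference. Epha4, below the median gene mean, was left out by the dim filter.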
